A study of Mus musculus with 6 samples.

Results

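Expression of 10 AP-1 and immediate early genes was described in castration-resistant prostate tumours of mice. The genes were taken by symbol and were Fos, Fosb, Fosl1, Fosl2, Jun, Junb, Jund, Atf3, Egr1 and Egr2, which are 10 of the 21718 genes in the deposited count table. Poly-A RNA of 6 tumour samples was sequenced, 3 in each marrow group, numbered 1, 3 and 4 in both. In the F10-deleted group, mice of a genetically engineered prostate tumour model carried marrow of F10fl/fl; LysM-Cre+ donors. In the F10-intact group, mice of the same model carried marrow of F10fl/fl donors without the Cre. F10 encodes coagulation factor X, and LysM-Cre is active in myeloid cells such as macrophages and neutrophils, so cells of the host keep F10. All recipients were irradiated with 900 rad and transplanted at 6 weeks of age, then castrated at 8 weeks. Tumours were taken 16 weeks after castration. The comparison asks how tumour transcription of these genes differs when the marrow is designed to lack F10 in myeloid cells.

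Immediate early genes are transcribed within minutes of a stimulus from factors already present in the cell, and their mRNAs are short-lived. Fos proteins pair with Jun proteins through leucine zippers to form AP-1, which binds DNA at AP-1 sites, while Jun proteins also pair with each other. Atf3 is a stress-induced relative of this family, and Egr1 and Egr2 are zinc-finger factors. Growth factor receptors and protease-activated receptors, which coagulation proteases can cleave, reach these genes through the ERK kinases and the serum response factor. Wounding, warming and dissociation of tissue also induce them, so their level in an excised tumour can carry a trace of its handling.

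The 6 libraries held 9237308 to 11821588 counts, and 20143 to 20843 genes had at least 1 count. Values are in CPM, counts relative to the library total scaled by TMM factors, a scaling that equalises the bulk of genes between libraries. F10 itself had 7, 4 and 9 counts in F10-deleted samples 1, 3 and 4, and 2, 6 and 17 counts in F10-intact samples 1, 3 and 4. The exact two-sided permutation p was 1 (n = 3 each), and these counts do not check the labels. F10-intact sample 4 stood apart on the first principal component, which held 47.6% of the variance, and it had the highest mitochondrial share, 5.75% of counts, where the other 5 had 2.45% to 4.58%. Luminal epithelial markers such as Krt8, Krt18 and Epcam summed to 4917 to 5339 CPM in F10-deleted samples and 4962 to 6209 CPM in F10-intact samples. The labels do not say whether the samples numbered alike share anything or came from different animals, and p-values therefore describe sample-to-sample spread, which may be technical. In whole tissue, fewer cells of a type and less RNA per cell cannot be told apart.

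The 4 promoters below belong to Jun, Fosl2 and Egr2, whose groups did not overlap, and to Fos, which spanned the widest range of the tested members. Each window runs from 250 bases before to 50 bases after a RefSeq start site on GRCm38.p6, 5′ to 3′ on the strand of the gene, and 8 of the 10 members had a window in the table. Capitals mark matches to the motifs searched on both strands, and positions are counted from the start site, with -1 just before it. The motifs were the CArG box bound by serum response factor, the CRE (TGACGTCA), its half-site (TGACG, which lies inside the CRE), the AP-1 site (TGAGTCA or TGACTCA), the AP-1 site known from the Jun promoter (TGACATCA) and the EGR site (GCGTGGGCG or GCGGGGGCG). The half-site and the Jun-type site were added after the first matches were seen.
Fos, chr12:85473640-85473939, plus strand: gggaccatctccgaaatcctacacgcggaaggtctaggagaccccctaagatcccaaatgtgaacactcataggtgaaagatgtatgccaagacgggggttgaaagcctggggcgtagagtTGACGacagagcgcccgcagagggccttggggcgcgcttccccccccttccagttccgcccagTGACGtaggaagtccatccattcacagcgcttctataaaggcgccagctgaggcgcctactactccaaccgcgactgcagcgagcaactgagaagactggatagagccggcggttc
Jun, chr4:95052173-95052472, minus strand: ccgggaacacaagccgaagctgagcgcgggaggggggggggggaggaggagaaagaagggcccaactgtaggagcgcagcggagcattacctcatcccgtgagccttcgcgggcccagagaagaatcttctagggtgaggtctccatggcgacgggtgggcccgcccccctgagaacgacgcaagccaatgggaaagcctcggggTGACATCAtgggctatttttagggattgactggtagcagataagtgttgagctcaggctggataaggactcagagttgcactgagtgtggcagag
Fosl2, chr5:32136222-32136521, plus strand: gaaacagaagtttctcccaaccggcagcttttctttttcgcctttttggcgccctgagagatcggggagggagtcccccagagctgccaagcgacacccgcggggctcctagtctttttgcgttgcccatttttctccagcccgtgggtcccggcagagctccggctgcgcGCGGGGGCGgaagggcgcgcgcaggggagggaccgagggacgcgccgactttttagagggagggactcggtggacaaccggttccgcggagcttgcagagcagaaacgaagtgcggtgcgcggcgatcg
Egr2, chr10:67537619-67537918, plus strand: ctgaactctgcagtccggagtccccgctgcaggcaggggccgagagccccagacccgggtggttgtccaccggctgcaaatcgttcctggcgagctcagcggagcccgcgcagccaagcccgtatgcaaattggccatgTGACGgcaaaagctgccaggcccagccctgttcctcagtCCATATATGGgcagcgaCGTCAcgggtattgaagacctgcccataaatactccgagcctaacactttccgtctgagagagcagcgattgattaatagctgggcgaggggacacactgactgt
Of all 32817 windows of this length, 1.63% held a CArG box, 1.79% a CRE, 20.8% a CRE half-site, 5.2% an AP-1 site, 3.62% a Jun-type site and 3.47% an EGR site. Egr2 had a CArG box at -72 to -63 in the window shown, which is 1 of its 5 start sites, with CRE half-sites at -111 to -107 and -55 to -51. Fos had CRE half-sites at -129 to -125 and -66 to -62, and Jun had a Jun-type AP-1 site at -45 to -38. Fosl2 had an EGR site at -79 to -71, and Fosb, whose window is not shown, had an EGR site at -50 to -42 and a half-site at -60 to -56. Junb and Atf3, also not shown, had half-sites at -106 to -102 and at -7 to -3. The window of Jund, which lies upstream of the annotated gene, had 0 matches. Bases more than 250 before a start site were not searched, and Egr1 and Fosl1 had no window, so a motif not listed here may lie elsewhere. A match describes these letters and does not show that a factor was bound.

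The members differed widely in level. Per kilobase of exon, Jun had the highest mean over all samples at 59.1 ± 9.47 CPM per kb, followed by Jund at 45.4 ± 11.9 and Fos at 29.4 ± 12.8 (SD, n = 6 samples). Jun was above Jund in 4 of the 6 samples. In the F10-intact group the mean of Jund, 52.8 CPM per kb, was above that of Jun, 51.0. Egr1 at 22.2 ± 5.15, Fosl2 at 21.9 ± 4.75, Atf3 at 19.6 ± 6.08 and Junb at 16.1 ± 7.93 CPM per kb did not differ from their neighbours in this order by more than their spread, nor did Fos from Egr1. Egr2 at 0.718 ± 0.265 and Fosb at 0.607 ± 0.274 CPM per kb were far below the others and did not differ from each other beyond their spread. Fosl1 was at 0.102 ± 0.110 CPM per kb, close to the detection limit.

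No member passed the edgeR quasi-likelihood test between the marrow groups at an adjusted p under 0.05. For Jun, Fosl2 and Egr2 the lowest F10-deleted sample lay above the highest F10-intact one, Fos and Fosb had higher means in the F10-deleted group with overlapping groups, and Jund had a lower one. Junb and Atf3 differed between the group means by less than the spread between samples. Of 15963 genes tested, 0.0439% passed, all of them higher in the F10-deleted group, and 2 genes (0.0125%) passed with the sample number as a block. Of the 9 members that reached the filter on low counts, 0 passed with edgeR, with limma-voom, with DESeq2 (2.89% of genes passed) or with the block. At an unadjusted edgeR p under 0.05 there were 3 members, all higher, where 10.9% of all genes were below that p, 6.15% higher and 4.74% lower. DESeq2 gave 4 members below it (8.96% of genes) and the blocked fit 5 (14.4% of genes). The 9 tested members had a median log2 fold change of 0.40, with 7 above 0 and 2 below, beside a median of -0.02 over all genes, of which 47.3% were above 0.

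**Figure D1:**
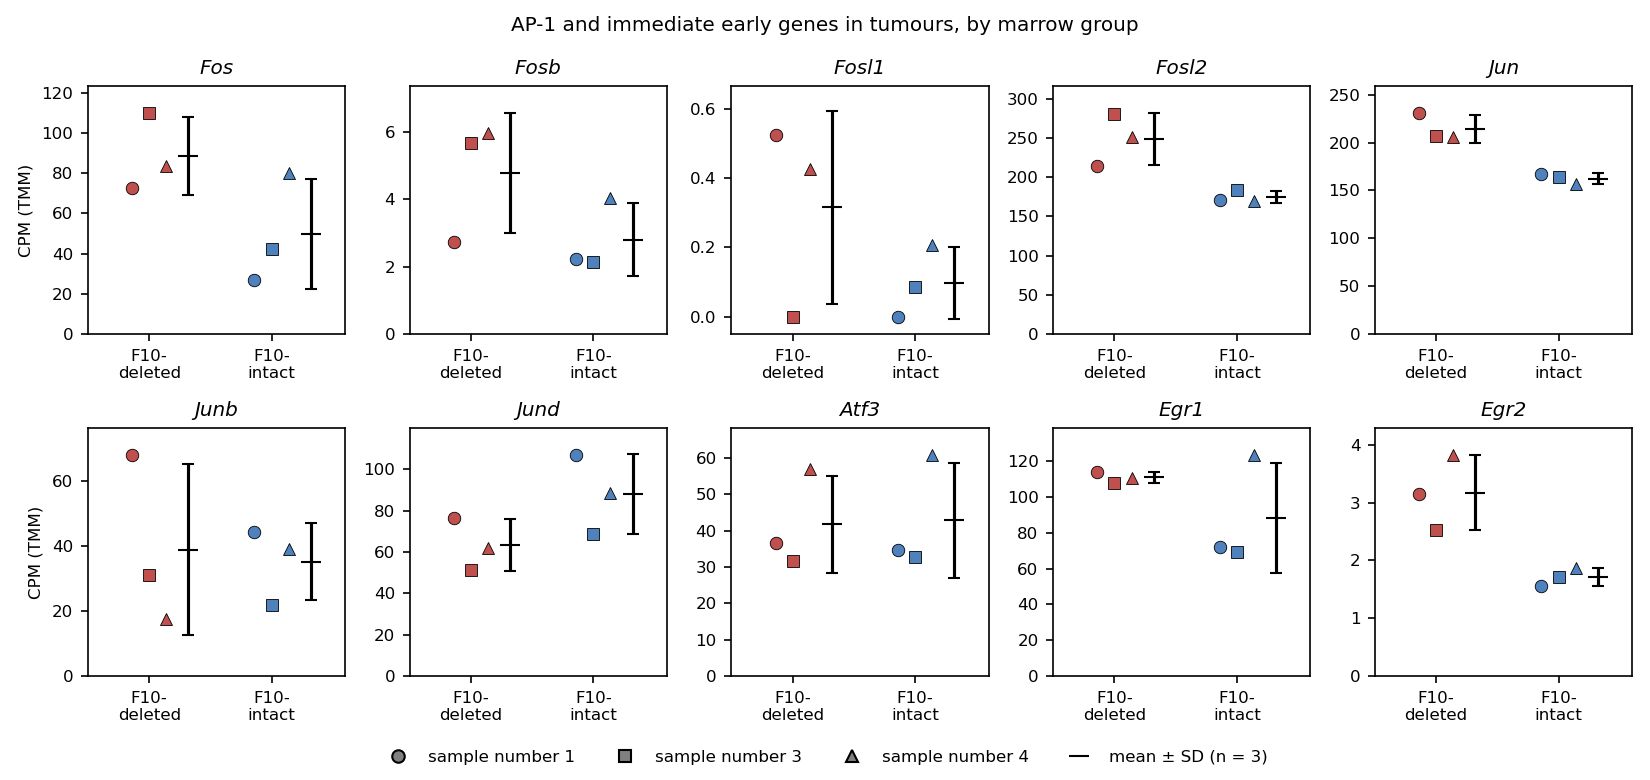
Levels of the 10 members in every sample, in TMM-scaled CPM on a linear axis, one panel per gene with its own scale. Symbols give the sample number, and bars to the right of the points give the mean ± SD of 3 samples. Jun, Fosl2 and Egr2 are separated between the groups, while F10-intact sample 4 lies among the F10-deleted samples for Fos and Egr1.

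Among the Fos proteins, Fos (ENSMUSG00000021250, chromosome 12, 85473890 to 85477273, plus strand, GRCm38) is the founding immediate early member. Fos had 72.5, 110.1 and 83.3 CPM in F10-deleted samples 1, 3 and 4, and 27.0, 42.1 and 79.9 CPM in F10-intact samples 1, 3 and 4. F10-intact samples 1 and 3 were lowest and F10-intact sample 4 lay within the F10-deleted range, so the groups overlapped. The mean was 88.6 ± 19.3 CPM in the F10-deleted group and 49.7 ± 27.3 CPM in the F10-intact group (SD, n = 3 each). In the edgeR fit this was 0.84 ± 0.38 log2 units (SE, 95% interval -0.06 to 1.74). The edgeR adjusted p was 0.492, and it was 0.295 with the block at a log2 fold change of 0.96. Without F10-intact sample 4 the log2 fold change was 1.36 and the edgeR adjusted p 0.134. Between samples of the same number, F10-deleted minus F10-intact, Fos differed by 1.41, 1.38 and 0.06 log2 units for numbers 1, 3 and 4. All 3 differences were above 0 for 5 of the tested members, as for 20.0% of all genes. The highest Fos sample had 4.08 times the level of the lowest, and the log2 range of Fos, 2.01, was wider than that of 91.8% of the genes tested.

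Fosl2 (ENSMUSG00000029135, chromosome 5, 32135801 to 32157842, plus strand), also called Fra-2, is a Fos protein induced later and more lastingly than Fos. It had 214, 281 and 251 CPM in F10-deleted samples 1, 3 and 4, and 171, 183.5 and 169.8 CPM in F10-intact samples 1, 3 and 4. All F10-deleted samples were above all F10-intact samples, which lay close together. Its log2 fold change was 0.51 ± 0.14 (SE, 95% interval 0.18 to 0.84), with an edgeR adjusted p of 0.247 and a DESeq2 adjusted p of 0.0689. An exact two-sided permutation test of the groups (n = 3 each) gave p = 0.1, the smallest this design allows. It was the single member with a DESeq2 adjusted p under 0.1, which 3.96% of genes reached.

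Fosb (ENSMUSG00000003545, chromosome 7, 19302696 to 19310051, minus strand), an inducible relative of Fos, was far less abundant. It had 2.73, 5.66 and 5.96 CPM in F10-deleted samples 1, 3 and 4, and 2.21, 2.14 and 4.04 CPM in F10-intact samples 1, 3 and 4. The groups overlapped, because F10-intact sample 4 was above F10-deleted sample 1. Its log2 fold change was 0.78 ± 0.42 (SE, edgeR adjusted p = 0.564). Fosl1 (ENSMUSG00000024912, chromosome 19, 5447547 to 5455946, plus strand), the Fra-1 gene and a common ERK-dependent gene of carcinoma cells, had 5, 0 and 5 counts in F10-deleted samples and 0, 1 and 2 counts in F10-intact samples. A count of 0 allows up to 0.253 CPM in F10-deleted sample 3 and up to 0.276 CPM in F10-intact sample 1, taking 3 counts as the limit. The ratio of the summed counts was 3.24 (exact 95% interval 0.834 to 18.3, counting error only), so a difference in Fosl1 was not detectable at this depth. It was below the filter and took no part in the counts of tested members.

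Among the Jun proteins, Jun (ENSMUSG00000052684, chromosome 4, 95049034 to 95052222, minus strand), the main partner of Fos, had the narrowest spread of the set. Jun had 231, 206 and 206 CPM in F10-deleted samples 1, 3 and 4, and 167, 164 and 156 CPM in F10-intact samples 1, 3 and 4. The groups did not overlap, as was the case for 3 members, all higher in the F10-deleted group, and 0 lower. Over all genes tested, 9.0% did not overlap with the F10-deleted group higher and 7.68% with it lower. The log2 fold change was 0.40 ± 0.12 (SE, 95% interval 0.13 to 0.68, edgeR adjusted p = 0.280), and it stayed between 0.37 and 0.46 with any 1 sample left out. Its log2 range over the 6 samples, 0.56, was wider than that of 32.6% of genes. Jun is overlapped on the other strand by the antisense gene Junos, which had 85 to 167 counts per sample, and the strand setting of the counting is not given in the sources used here.

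Jund (ENSMUSG00000071076, chromosome 8, 70698949 to 70700616, plus strand), the Jun protein kept at a steady level in resting cells, had a fold change below 0. It had 76.3, 51.5 and 62.1 CPM in F10-deleted samples 1, 3 and 4, and 107, 68.5 and 88.6 CPM in F10-intact samples 1, 3 and 4. The groups overlapped, because F10-deleted sample 1 was above F10-intact sample 3. Within each sample number the F10-deleted sample was the lower one, by -0.49, -0.41 and -0.51 log2 units for numbers 1, 3 and 4, a pattern shared by 21.2% of all genes. The log2 fold change was -0.48 ± 0.21 (SE, 95% interval -0.96 to 0.01, edgeR adjusted p = 0.462), and -0.47 with the block (adjusted p = 0.182). Without F10-intact sample 1 the log2 fold change was -0.28.

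Junb (ENSMUSG00000052837, chromosome 8, 84974484 to 84978718, minus strand), a Jun protein that can oppose Jun, varied widely within both groups. It had 68.0, 30.9 and 17.5 CPM in F10-deleted samples 1, 3 and 4, and 44.4, 21.9 and 39.1 CPM in F10-intact samples 1, 3 and 4. Both the highest and the lowest value of the 6 were in the F10-deleted group. Its log2 fold change was 0.14 ± 0.49 (SE, edgeR adjusted p = 0.952), and it ranged from -0.50 without F10-deleted sample 1 to 0.49 without F10-deleted sample 4. Prdx2, a neighbour that overlaps Junb on the other strand, had 3489 to 4884 counts per sample.

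The balance of Jun and Jund is given as a ratio that was chosen after the values were seen. Per kilobase, Jun over Jund was 1.59, 2.10 and 1.74 in F10-deleted samples 1, 3 and 4, against 0.817, 1.25 and 0.923 in F10-intact samples 1, 3 and 4. The groups did not overlap. The mean log2 ratio was 0.84 ± 0.21 in the F10-deleted group and -0.03 ± 0.32 in the F10-intact group (SD, n = 3 each), given as a description because the ratio was picked for the opposite directions of its genes. Jund made up 28.3% to 34.0% of the summed Jun family level in F10-deleted samples and 40.3% to 47.2% in F10-intact samples. The share of Jun overlapped, at 49.1% to 59.4% in F10-deleted samples and 38.6% to 50.4% in F10-intact samples. In the Fos family, Fos made up 56.7% to 61.0% in F10-deleted samples and 38.9% to 65.0% in F10-intact samples, where F10-intact sample 4 was highest.

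**Figure D2:**
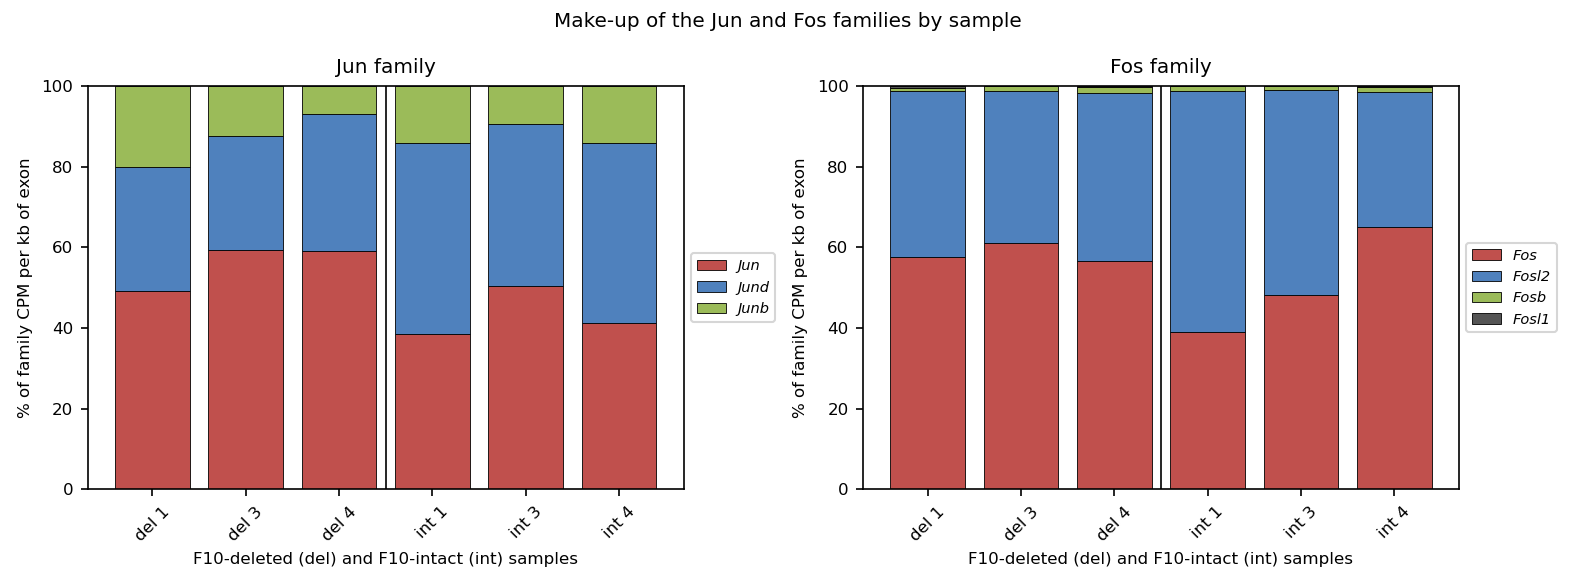
Share of each gene in the summed level per kilobase of exon of the Jun family (left) and the Fos family (right), in percent, for each F10-deleted (del) and F10-intact (int) sample. The Jund share was 28.3% to 34.0% in the F10-deleted samples and 40.3% to 47.2% in the F10-intact samples, while the Jun share overlapped between the groups.

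Egr1 (ENSMUSG00000038418, chromosome 18, 34859823 to 34864984, plus strand), the classical ERK-driven zinc-finger factor, had 114, 108 and 110.5 CPM in F10-deleted samples 1, 3 and 4, and 72.4, 69.1 and 124 CPM in F10-intact samples 1, 3 and 4. The F10-deleted samples lay close together, and F10-intact sample 4 had the highest value of the 6. The log2 fold change was 0.33 ± 0.23 (SE, edgeR adjusted p = 0.661), 0.65 without F10-intact sample 4 (edgeR adjusted p = 0.148) and 0.18 without F10-intact sample 3. Without F10-intact sample 4, 6 members had an unadjusted edgeR p under 0.05, where 9.31% of genes did, and 0 passed the adjusted threshold.

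Egr2 (ENSMUSG00000037868, chromosome 10, 67535475 to 67542188, plus strand), a relative of Egr1 with roles in nerve myelination and in lymphocytes, was low throughout. It had 3.14, 2.53 and 3.83 CPM in F10-deleted samples 1, 3 and 4, and 1.57, 1.71 and 1.86 CPM in F10-intact samples 1, 3 and 4. These values rest on 30, 30 and 45 counts in the F10-deleted samples and 17, 20 and 18 counts in the F10-intact samples. All F10-deleted samples were above all F10-intact samples. In the edgeR fit the log2 fold change was 0.88 ± 0.33 (SE, 95% interval 0.12 to 1.65), with an adjusted p of 0.380 and a DESeq2 adjusted p of 0.443. It ranged from 0.72 to 1.06 with any 1 sample left out.

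Atf3 (ENSMUSG00000026628, chromosome 1, 191170296 to 191218039, minus strand), a stress-induced repressor, had 36.6, 31.7 and 56.9 CPM in F10-deleted samples 1, 3 and 4, and 34.6, 32.9 and 61.0 CPM in F10-intact samples 1, 3 and 4. Both samples numbered 4 were high, and the groups covered the same range. The log2 fold change was -0.04 ± 0.31 (SE, edgeR adjusted p = 0.982), with a 95% interval of -0.76 to 0.69. Leaving out F10-deleted sample 4 gave -0.33, and leaving out F10-intact sample 4 gave 0.30.

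**Figure D3:**
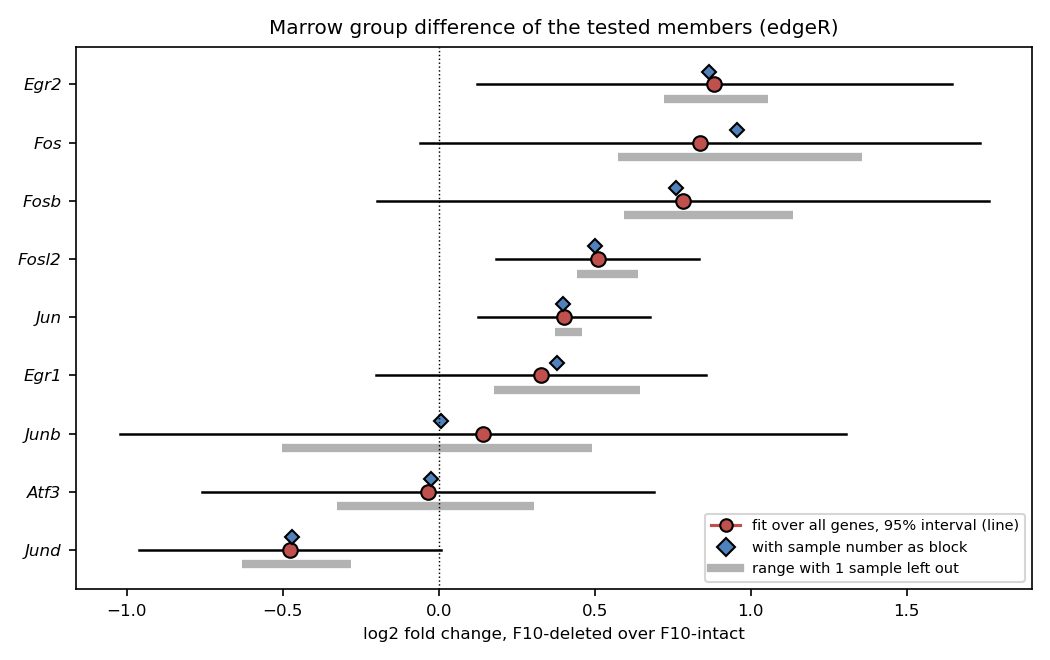
Log2 fold change, F10-deleted over F10-intact, of the 9 tested members with edgeR. Circles with lines give the fit over all genes with its 95% interval, diamonds the fit with the sample number as a block, and grey bars the range with 1 sample left out. The intervals of Jun, Fosl2 and Egr2 lie above 0, and none of the 9 passed after adjustment over all genes.

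The members did not all vary alike across the 6 samples. Correlations were taken over the 6 samples on log2(CPM + 0.5) for all 45 pairs. Of these, 31 were above 0, with a median r of 0.37. With the group means removed, 26 were above 0, with a median r of 0.17. In that setting 2 pairs had an r of at least 0.8 and 2 an r of -0.8 or lower. Over all 6 samples, an r of at least 0.8 was found for Fos with Egr1, Fos with Fosb and Jun with Egr2. The count of 3 such pairs was 8 without F10-deleted sample 1, F10-deleted sample 3 or F10-intact sample 4. With exact permutation tests, 2 pairs had an unadjusted p under 0.05 and 0 passed adjustment over the 45 pairs, the lowest adjusted p being 0.489.

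Fos and Fosb had r = 0.84 (exact permutation p = 0.0375) and Spearman rho = 0.89 (exact permutation p = 0.0333), with adjusted p of 0.489 and 0.656. Leaving out the 2 samples farthest from the median of Fos gave r = 0.72, and removing the group means gave r = 0.72. Fos and Egr1 had r = 0.86 (exact permutation p = 0.0625) and rho = 0.43 (exact permutation p = 0.419), with adjusted p of 0.489 and 0.786. That relation rested on the extreme samples, since r was -0.59 without the 2 farthest, although it was 0.79 with the group means removed. Jun and Egr2 had r = 0.85 (exact permutation p = 0.0694) and rho = 0.60 (exact permutation p = 0.242), with adjusted p of 0.489 and 0.704, and r = 0.89 without the 2 farthest samples. With the group means removed their r was -0.15.

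Fosl2 and Jund were negatively correlated, with r = -0.88 (exact permutation p = 0.0250) and rho = -0.89 (exact permutation p = 0.0333), adjusted p of 0.489 and 0.656. The r was -0.58 without the 2 samples farthest in Fosl2 and -0.82 with the group means removed. Fos and Junb, both immediate early genes, showed r = -0.12 (exact permutation p = 0.821) and rho = -0.43 (exact permutation p = 0.419), with adjusted p of 0.840 and 0.786. Jun and Fosl2 had r = 0.77 over the 6 samples (exact permutation p = 0.0958, adjusted 0.489) and rho = 0.77 (exact permutation p = 0.103, adjusted 0.656), but -0.73 with the group means removed.

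**Figure D4:**
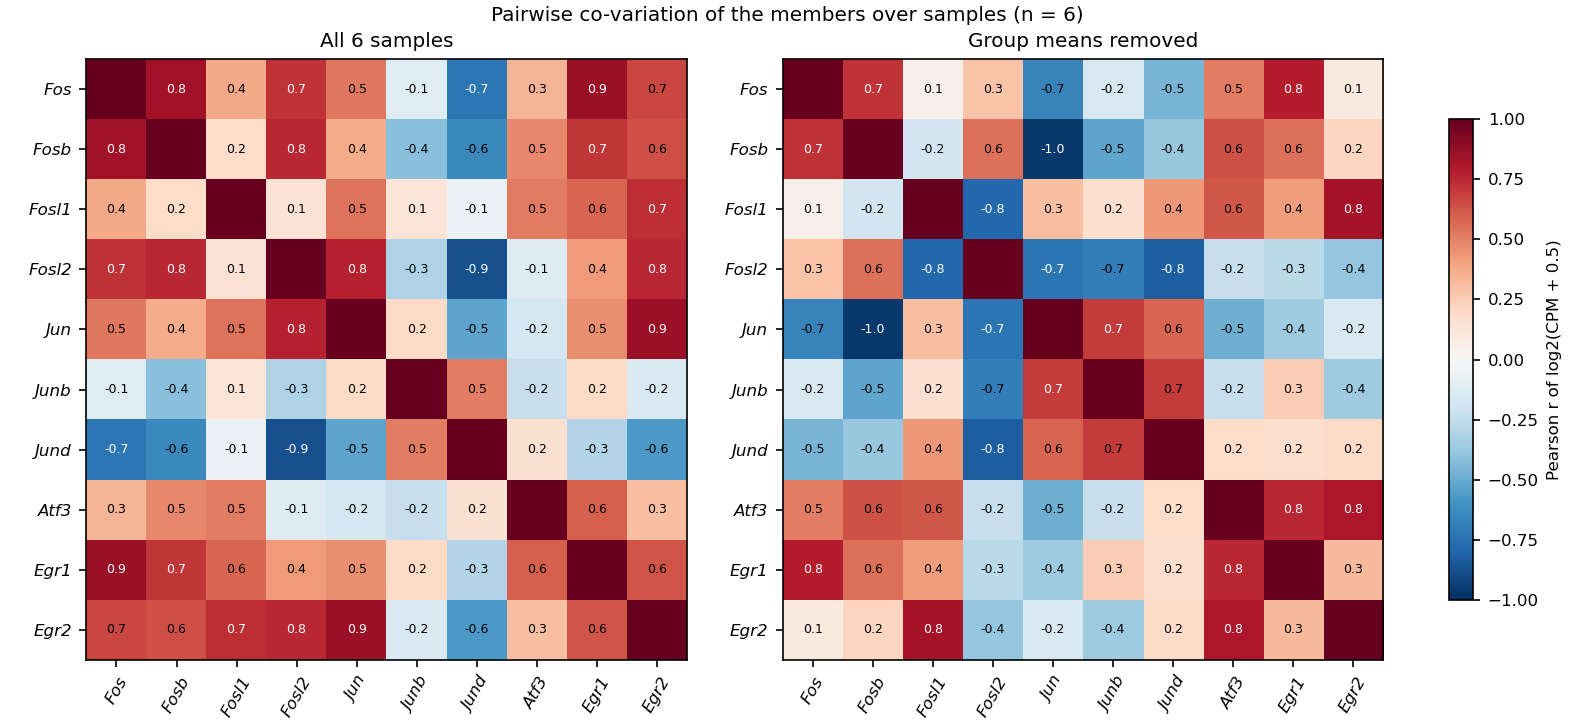
Pearson r of log2(CPM + 0.5) between members over the 6 samples (left) and after the mean of each marrow group was removed (right). Red is positive and blue negative. The Fos, Fosb and Egr1 pairs stay positive in both panels, while Jun with Fosl2 has 0.77 on the left and -0.73 on the right.

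Other immediate early genes were listed as a check on the same response. Of 34 listed, 32 were tested, and 23 had a log2 fold change above 0 and 9 below, where 47.3% of all genes were above 0. With edgeR 0 passed in either direction. At an unadjusted edgeR p under 0.05 there were 4, all higher, where 6.15% of all genes were. With DESeq2 2 passed, both higher, where 2.89% of all genes passed in either direction. The median of 0.09, beside -0.02 over all genes, was 0.20 with F10-intact sample 1 left out and 0.02 with F10-intact sample 3 left out. The smallest p-values belonged to Ccn1 and Ccn2, secreted matricellular proteins, and Klf10, a TGF-beta-inducible repressor. The edgeR estimate for Ccn1 was 0.72 ± 0.13 log2 units (SE, edgeR adjusted p = 0.103, DESeq2 adjusted p = 0.00131), Ccn2 1.30 ± 0.27 (edgeR adjusted p = 0.144, DESeq2 adjusted p = 0.000888) and Klf10 0.41 ± 0.14 (edgeR adjusted p = 0.344). Ccn1 had 68.6, 72.1 and 71.0 CPM in F10-deleted samples 1, 3 and 4, and 37.9, 44.8 and 45.4 CPM in F10-intact samples 1, 3 and 4. All 3 of these genes were higher in each F10-deleted sample than in any F10-intact sample, as were 9.0% of all genes. They had been picked for the lowest p, so this adds no support.

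Fos and Junb were each set against these 32 genes over the 6 samples, 64 relations in all, and 0 passed after adjustment, the lowest adjusted p being 0.356. With Fos, 5 of the 32 had an r of at least 0.8. The highest was Socs3, a feedback inhibitor of cytokine signalling, at r = 0.90 (exact permutation p = 0.0264, adjusted 0.382) and rho = 0.66 (exact permutation p = 0.175, adjusted 0.732). That relation rested on the extreme samples, with r = -0.72 without the 2 farthest in Fos, and for Nr4a1 r was 0.81 over all samples and -0.50 without them. Nr4a3, an orphan nuclear receptor, was negatively related, at r = -0.82 (exact permutation p = 0.0417, adjusted 0.382) and rho = -0.77 (exact permutation p = 0.103, adjusted 0.658), with r = -0.60 without the 2 farthest. Another of the 5 was Dusp1, a phosphatase that switches off MAP kinases, at r = 0.88 (exact permutation p = 0.0264, adjusted 0.382) and rho = 0.83 (exact permutation p = 0.0583, adjusted 0.622). The r of Fos and Dusp1 was 0.44 without the 2 samples farthest in Fos and 0.99 with the group means removed. With Junb, the highest was Ier2, an early response gene, at r = 0.93 (exact permutation p = 0.00556, adjusted 0.356) and rho = 0.94 (exact permutation p = 0.0167, adjusted 0.533), with r = 0.97 without the 2 farthest samples and 0.95 with the group means removed. Ier2 had 60.7, 37.3 and 30.7 CPM in F10-deleted samples 1, 3 and 4, and 61.5, 31.8 and 54.2 CPM in F10-intact samples 1, 3 and 4. It was high where Junb was high, in both samples numbered 1 and in F10-intact sample 4.

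**Figure D5:**
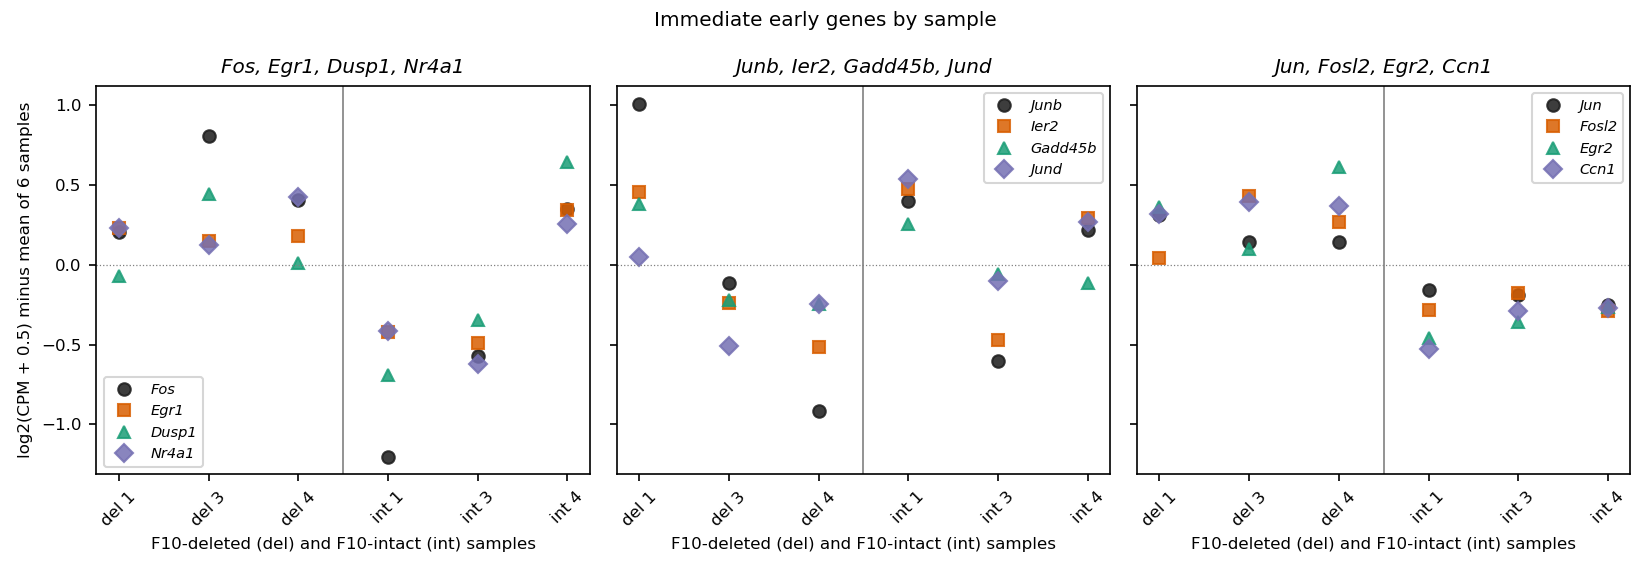
Log2(CPM + 0.5) minus the mean of the 6 samples, for genes chosen after their values were seen, in F10-deleted (del) and F10-intact (int) samples. Fos, Egr1, Dusp1 and Nr4a1 are low in F10-intact samples 1 and 3 and high in F10-intact sample 4, Junb and Ier2 are high in both samples numbered 1, and Jun, Fosl2, Egr2 and Ccn1 separate the groups.

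The gene profiles most like the mean of the 10 members were those of Coro6, a coronin, and Nr4a1, an immediate early orphan nuclear receptor, with r of 0.98 each over the 6 samples among 10328 genes with a mean of at least 10 CPM. Cd14, Dapl1 and Anxa1 followed, each with r of 0.97. Nr4a1 had 32.5, 30.1 and 37.4 CPM in F10-deleted samples 1, 3 and 4, and 20.6, 17.8 and 33.1 CPM in F10-intact samples 1, 3 and 4. Like Fos and Egr1, it was lowest in F10-intact samples 1 and 3. With so many genes and 6 samples, 35 genes had an r of at least 0.9, and the likeness is a description.

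Partners and regulators of the members gave 0 calls with edgeR and 1 with DESeq2, Elk3. Over all genes, 2.89% passed DESeq2, 10.9% had an unadjusted edgeR p under 0.05 and 47.3% were above 0. Of 13 other leucine zipper partners and competitors, 6 were above 0 and 7 below, 0 passed with edgeR or DESeq2 and 0 had an unadjusted edgeR p under 0.05, with Batf3 at -0.93 ± 0.59 and Maf at -0.18 ± 0.16 log2 units (SE, edgeR adjusted p = 0.628 and 0.750). Their median log2 fold change was -6.93e-06, and it lay between -0.01 and 0.06 with any 1 sample left out. Of 18 upstream regulators, 12 were above 0 and 6 below, with a median of 0.02, and 0.09 without F10-deleted sample 3. With edgeR 0 passed and 1 was at an unadjusted p under 0.05, and with DESeq2 1 passed. Elk3, a partner of serum response factor, had 0.50 ± 0.12 (SE, edgeR adjusted p = 0.195, DESeq2 adjusted p = 0.0458), the kinase Mapk9 -0.54 ± 0.26 (edgeR adjusted p = 0.504) and the kinase Rps6ka3 0.24 ± 0.15 (edgeR adjusted p = 0.610). Of 13 genes that feed back on ERK or repress EGR proteins, 7 were above 0 and 6 below, and the median of 0.02 turned to -0.02 when F10-intact sample 3 was dropped and to -0.0011 when F10-intact sample 4 was. With edgeR 0 passed and 1 was at an unadjusted p under 0.05, and with DESeq2 0 passed. Spry1, an inhibitor of receptor tyrosine kinase signalling, was at -0.52 ± 0.16 (SE, edgeR adjusted p = 0.301), Spred2 at 0.37 ± 0.17 and the phosphatase Dusp5 at -0.48 ± 0.29 (edgeR adjusted p = 0.483 and 0.614).

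Most genes with known AP-1 sites had fold changes above 0, with 0 past the edgeR test in either direction and 2 past DESeq2 (2.89% of all genes). At an unadjusted edgeR p under 0.05 were 7 of 20, 6 higher and 1 lower, where 6.15% of all genes were higher and 4.74% lower. Of 24 listed, 20 were tested, 19 had a log2 fold change above 0 and 1 below, where 47.3% of all genes were above 0, and the median was 0.45, beside -0.02 over all genes. Areg, a ligand of the EGF receptor, was at 2.25 ± 0.64 log2 units (SE, edgeR adjusted p = 0.258, DESeq2 adjusted p = 0.0264), and Plaur, the urokinase receptor, at 0.62 ± 0.22 (edgeR adjusted p = 0.347). The groups did not overlap for 5 of the 20, all higher, where 9.0% of all genes did not overlap in that direction and 7.68% in the other. The single gene below 0 was Cxcl1, a neutrophil chemokine, at -1.17 (edgeR adjusted p = 0.440), named after its value was seen.

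Heat shock genes, which are induced with Fos and Jun when tissue is warmed or dissociated, were listed beside them. Of 13, all tested, 8 were above 0 and 5 below, with a median of 0.08 that was lowest at 0.03, leaving out F10-deleted sample 3, and highest at 0.15, leaving out F10-deleted sample 1. With edgeR 0 passed and 1 in each direction was at an unadjusted p under 0.05, where 6.15% of all genes were higher and 4.74% lower. With DESeq2 0 passed. The mean of the list relative to the 6 samples was 0.02, -0.08 and 0.10 on the log2 scale for F10-deleted samples 1, 3 and 4, beside 0.04, -0.03 and -0.04 for F10-intact samples 1, 3 and 4. Fos on the same scale was at 0.21, 0.81 and 0.41 for F10-deleted samples, against -1.20, -0.57 and 0.35 for F10-intact samples. A mean of 13 genes evens out single genes, so its spread cannot be set against that of Fos alone. The median log2 range of the single heat shock genes was 0.55, beside medians of 1.05 over the 9 tested members and 0.76 over all genes. Among the tested members it ran from 0.56 for Jun to 2.01 for Fos. Hspa1a, named after its values were seen, ran from 5.18 CPM in F10-intact sample 4 to 15.1 CPM in F10-intact sample 1. Over the list, r with Fos ran from -0.58 for Hspa1a to 0.75 for Dnajb1, also named after its values were seen. Dnajb4, a co-chaperone, had 0.29 ± 0.12, and the chaperones Hsp90aa1 and Hspa8 had -0.43 ± 0.19 and -0.45 ± 0.26 (SE, edgeR adjusted p = 0.449, 0.455 and 0.589). Of 12 hypoxia genes, 8 were above 0 and 4 below, with a median of 0.09 that was lowest at 0.05, leaving out F10-intact sample 4, and highest at 0.16, leaving out F10-intact sample 1. With edgeR 0 passed and 3 were at an unadjusted p under 0.05, all higher, where 6.15% of all genes were. With DESeq2 2 passed, both higher, where 2.89% of all genes passed in either direction. Car9, a carbonic anhydrase, was at 1.34 ± 0.28 (SE, edgeR adjusted p = 0.131, DESeq2 adjusted p = 0.000990), Egln3 at 0.68 ± 0.17 (edgeR adjusted p = 0.205, DESeq2 adjusted p = 0.0406) and Pfkfb3 at 0.46 ± 0.15 (edgeR adjusted p = 0.327). The labels' protocols say that tumours were excised quickly, the time to homogenisation is not given in the sources used here, and the part of handling in the values of the members was not tested.

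Like Jun, Fosl2 and Egr2, the summed markers of 3 other cell types did not overlap between the groups. The 7 skeletal muscle markers summed to 673 to 1685 CPM in F10-deleted samples and 12.4 to 103 CPM in F10-intact samples. The 5 basal epithelial markers summed to 2136 to 3573 CPM in F10-deleted samples and 779 to 1905 CPM in F10-intact samples, and the 6 endothelial markers to 52.9 to 69.8 CPM and 30.4 to 51.0 CPM for F10-deleted and F10-intact samples. All tested markers had log2 fold changes above 0 in these 3 lists and also in the adipocyte and urothelium lists (5 of 5 each), with medians of 4.46 for muscle, 2.88 for adipocyte, 2.17 for urothelium, 1.02 for basal and 0.67 for endothelial markers. No marker was at 0 in all samples. For the other 9 marker lists the summed levels overlapped between the groups. In the fibroblast list 3 of 6 markers, all collagens, did not overlap and passed DESeq2, all higher. Over all genes, 9.0% did not overlap with the F10-deleted group higher, and 2.89% passed DESeq2 in either direction. The mean log2 level of the fibroblast list, relative to the 6 samples, was 0.21 to 0.29 in F10-deleted samples and -0.32 to -0.14 in F10-intact samples. Its markers other than collagens overlapped between the groups. Their log2 fold changes were -0.13 ± 0.15 for Dcn, 0.04 ± 0.20 for Lum and 0.01 ± 0.18 for Pdgfra (SE). Of the neutrophil markers, 4 of 4 tested were below 0, with a median of -0.68. The part of RNA from any of these cell types in the values of the members was not tested.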

How the data were processed

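The authors deposited raw counts per gene for the 6 samples in 1 table, keyed by Ensembl ID. Libraries were directional and poly-A selected, with single-ended 120-base reads, per the labels' protocols. The submitters' processing notes name STAR 2.7.10a, GRCm38 and DESeq2, with no role. Which program counted the reads, on which strand and with which annotation, is not given in the sources used here. Symbols, coordinates and exon lengths came from the GRCm38 annotation, which matched 21605 IDs and left 113 without a symbol. Per-sample columns not used were 0 in number.

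CPM is the count divided by the library total times its TMM factor. Genes kept by filterByExpr (minimum count 10), 15963 of 21718, were tested with the edgeR 4.0.16 quasi-likelihood test in R 4.3.3, with Benjamini-Hochberg adjustment over all of them and a threshold of 0.05. Fosl1, below the filter, is described by its counts and enters the correlations and the mean of the 10 members, but no count of tested members. Exact permutation tests were two-sided, on log2(CPM + 0.5). Alternatives were RLE and upper quartile scaling, other filters, DESeq2 1.42.0, limma-voom (limma 3.58.1), a non-robust fit, the replicate block and dropping each sample in turn. Same-numbered samples deviated together across genes, with correlations of 0.372, 0.140 and 0.186 for numbers 1, 3 and 4. Samples of unlike number had correlations of -0.25 to 0.07. The numbers of the labels were therefore taken to pair samples for the block and the differences within a number. This is an assumption that the labels do not state and that 3 samples per group cannot settle. Replicates differed beyond sampling noise (chi-square per degree of freedom 24.4 to 83.7). On simulated counts for this comparison, over 15963 genes, edgeR recovered 34 of 100 genes changed 2-fold and 83 of 100 changed 4-fold, with 2 false among 119 calls. The simulated counts took the spread expected for the level of each gene, with no gene-specific spread, outlying sample or effect of the sample number. This recovery may therefore not hold for these samples.

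The members and lists were chosen with earlier results of these data known. Named genes are the members, F10, the 3 genes of lowest edgeR p in each list of pathway genes, and the 5 genes most like the mean of the members and most like Fos. Some genes that this rule names, and the recipients' engineered allele, are not reported here. Others are named as chosen after their values were seen. Intervals on counts cover counting error only.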

Additional observations from a re-analysis of the deposited data

How the results depend on the processing

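No member passed the adjusted p threshold of 0.05 in any of 126 member values under alternatives that had an adjusted p, of which 119 kept their direction and 7 reversed. Junb, 0.14 over all samples, reversed to -0.035 with limma-voom, to -0.50 without F10-deleted sample 1 and to -0.11 without F10-intact sample 3, with a highest value of 0.49. Atf3, lowest at -0.33, reversed to 0.000344 with upper quartile scaling, to 0.09 and 0.17 without F10-deleted samples 1 and 3, and to 0.30 without F10-intact sample 4. The causes were not tested. Over all genes, 7 passed, against 2 with a minimum of 1 CPM in 3 samples, 493 with DESeq2, 2 with limma-voom, 3 with a non-robust fit and 85 at an adjusted p under 0.1, and 0 to 72 with 1 sample left out (72 without F10-intact sample 1, 0 without F10-deleted sample 4 or F10-intact sample 3). With the replicate block 2 genes passed, and the block changed no call of a member. Member pairs with r of at least 0.8 numbered 3, and 3 to 8 with 1 sample left out (8 without F10-deleted sample 1, F10-deleted sample 3 or F10-intact sample 4). Depth limits Fosl1, and counts of 17 to 45 per sample limit Egr2.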

Other observations

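The profiles most like that of Fos over the 6 samples were those of Fam57a, Rhbdl2, Slc22a5, Capn2 and Cnst, each with r of 0.97 or 0.98 among 10328 genes, of which 118 had an r of at least 0.9. Fos over Jund per kilobase was 0.674, 1.52 and 0.951 in F10-deleted samples 1, 3 and 4, against 0.179, 0.436 and 0.640 in F10-intact samples 1, 3 and 4. Fosl2 over Jund was 0.483, 0.940 and 0.696 for the F10-deleted samples, against 0.275, 0.461 and 0.330 for the F10-intact samples. Both ratios were chosen after the values were seen, share Jund below the line and are a description.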
